A study of Mus musculus with 12 samples.

Results

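The genes described here are 10 members of the circadian clock measured in mouse liver, chosen by name as the rows of the expression table called Arntl, Clock, Npas2, Per1, Per2, Per3, Cry1, Nr1d1, Nr1d2 and Dbp, out of 23997 genes in all. RNA of the liver (left lateral lobe) was sequenced in 12 aged male C57BL/6 wild type mice, 3 in each of 4 groups. HFHSD+CUR mice ate a diet rich in fat and sugar that contained curcumin (CUR), a polyphenol of turmeric, HFHSD mice the same diet without it, NCD+CUR mice a normal control diet with curcumin, and NCD mice that diet alone. The age label was 107 weeks for replicate 3 of NCD+CUR and replicate 3 of NCD and 99 weeks for the other 10 mice, while the series text gave 83 to 91 weeks. The time of day at which the livers were taken, and whether the mice had been fasted before, are not given in the sources used here. Levels are in FPKM, fragments scaled by transcript length and by library size, which allow levels of different genes to be compared because transcript length has been divided out.

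The mammalian clock is a transcriptional feedback loop. ARNTL (also called BMAL1) pairs with CLOCK or NPAS2 and binds E-box elements to switch on the Per and Cry genes, whose proteins then return to the nucleus and inhibit that pair. In a second loop the nuclear receptors NR1D1 and NR1D2 (REV-ERB alpha and beta) repress Arntl and Npas2 through ROR elements, and DBP is an output factor that binds D-boxes. Mouse liver transcripts of the clock swing widely over the day, Arntl and Npas2 in roughly the opposite phase to Nr1d1 and Dbp, so a single collection shows the phase at which each liver was taken as well as any effect of diet.

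The elements named above can be read in the promoters of some of these genes, and the stretches with a match are shown because they mark which members carry the letters of an E-box or a D-box next to a start site. RefSeq windows (build GRCm38.p6) from 250 bases before to 50 bases after each start site were searched on both strands, and 9 of the 10 genes had a window, Per2 being the exception. The E-box CACGTG was found in 2 of the 9 genes, in Per1 and Cry1, against 8.09% of 27025 genes (7.15% of 32851 windows). The D-box TTATGTAA (or TTACGTAA) was found in Per3, at 2 places, against 1.23% of all genes (1.06% of windows). A ROR element, TAGGTCA (or TGGGTCA), was found in Arntl, 30 bases after a start site, against 7.35% of all genes (6.45% of windows). In the stretches below the matched letters are in capitals, and the distance is that of the first of them before the start site.
Per1 E-box, 166 bases before, chr11:69098766-69098805, plus strand: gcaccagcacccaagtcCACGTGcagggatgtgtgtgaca
Cry1 E-box, 60 bases before, chr10:85185092-85185131, minus strand: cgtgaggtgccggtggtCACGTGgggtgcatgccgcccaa
Per3 first D-box, 205 bases before, chr4:151044846-151044887, minus strand: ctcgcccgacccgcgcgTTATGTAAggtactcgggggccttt
Per3 second D-box, 158 bases before, chr4:151044799-151044840, minus strand: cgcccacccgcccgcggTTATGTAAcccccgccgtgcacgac
Both D-boxes of Per3 have the same orientation. The stretch of Per1 lies in an intron of a longer GENCODE transcript of the gene, and the others lie outside the annotated gene. A match of letters is a description of the window and says nothing of which protein was bound in these livers.

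The libraries were alike in breadth, with 10192 to 10721 genes at 1 FPKM or more, and no pair of libraries held identical values. The 6 hepatocyte markers (such as Alb and Apoa1) summed to between 76164 and 94663 FPKM in the 12 libraries, and none was absent from all 12. HFHSD+CUR replicate 3 stood furthest from the rest, with a mean correlation of 0.952 to the other libraries against 0.969 for the closest library. Rn45s, the precursor of ribosomal RNA and a sign of incomplete selection of messenger RNA, was at 16271, 129 and 3339 FPKM in HFHSD+CUR mice against 98.0, 82.9 and 173 FPKM in HFHSD mice. In this bulk RNA, fewer cells of a type and less RNA per cell cannot be told apart. The labels do not say what the replicate number stands for, and p-values measure the spread between these mice only.

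Across the 12 livers Dbp, Nr1d1, Nr1d2 and the Per genes were high, and Cry1 and the activators were low. Dbp had the highest level, with a mean of 90.5 FPKM, followed by Nr1d1 at 35.7, Nr1d2 at 22.2, Per3 at 16.1, Per2 at 11.2 and Per1 at 10.3 FPKM. Cry1 at 1.68 FPKM and Clock at 1.56 FPKM were next, then Arntl at 0.259 FPKM and Npas2 at 0.0358 FPKM. Neighbours in this order from Nr1d1 (23.1 to 56.5 FPKM) down to Per1 (7.85 to 13.9 FPKM) overlapped in their ranges over the mice, and so did Cry1 (0.820 to 2.60 FPKM) and Clock (1.24 to 1.94 FPKM). Dbp (69.5 to 114 FPKM) lay above Nr1d1 without overlap, Per1 above Cry1, Clock above Arntl, and Arntl above Npas2. Dbp exceeded Arntl in every mouse, by a ratio of 207 to 993 with a median of 325, and Nr1d1 exceeded Arntl by 69.0 to 397 with a median of 144. In all 12 livers Dbp and Nr1d1 thus stood far above Arntl and Npas2.

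**Figure D1:**
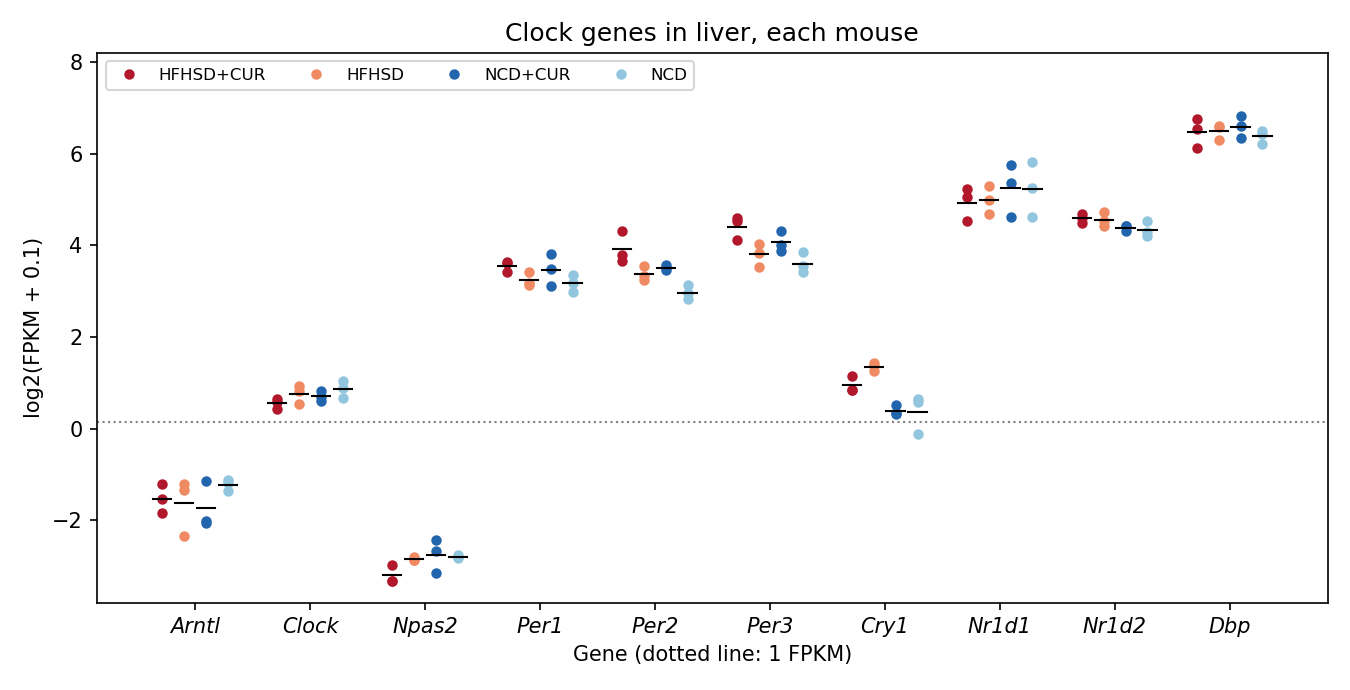
Level of each of the 10 clock genes in each mouse, as log2(FPKM + 0.1), for HFHSD+CUR, HFHSD, NCD+CUR and NCD livers from left to right within a gene (points are mice, bars are means of 3). Dbp and Nr1d1 lie at the top and Arntl and Npas2 below the dotted line at 1 FPKM in all 12 livers.

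A gene was tested where its mean over the 12 libraries was at least 1 FPKM, which 8 of the 10 clock genes passed and Arntl and Npas2 did not. Tests were made with limma on log2(FPKM + 0.1) across 10545 genes, and calls were made at a p of 0.1 after Benjamini-Hochberg adjustment. Fold changes are on that log2 scale, which understates the change of low genes, and are given with their standard error (SE).

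CUR on the HFHSD diet was compared first. Per2 and Per3, which encode period proteins of the inhibitory complex, were higher in HFHSD+CUR livers than in HFHSD livers, and no clock gene among the 8 tested fell. In mm10, Per2 lies at chr1:91415982-91459324, Per3 at chr4:151003652-151044665 and Cry1 at chr10:85131700-85185064, all on the minus strand. Per2 was at 13.7, 12.5 and 19.9 FPKM in HFHSD+CUR mice against 9.44, 10.02 and 11.6 FPKM in HFHSD mice. All 3 HFHSD+CUR mice lay above all 3 HFHSD mice, and replicate 3 was the highest of both groups. The log2 fold change of Per2 was 0.54 (SE 0.16, limma adjusted p = 0.0343). Per3 was at 23.9, 17.2 and 22.9 FPKM in HFHSD+CUR mice against 16.3, 11.5 and 14.2 FPKM in HFHSD mice, again without overlap, with a log2 fold change of 0.61 (SE 0.18, limma adjusted p = 0.0320). The 2 calls of 8 genes (25%) stood beside 30.3% of all genes called in this comparison, 13.1% higher and 17.2% lower, so the clock genes were called no more often than other genes. The 8 genes had a median log2 fold change of 0.00 against -0.03 for all genes tested. Groups that did not overlap were seen for 3 of the 8 genes (Per2 and Per3 higher, Cry1 lower) against 40.7% of all genes.

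Both calls rested in part on single libraries. Without HFHSD+CUR replicate 3, the library that stood furthest from the rest, Per2 had a log2 fold change of 0.34 (limma adjusted p = 0.137) and Per3 one of 0.55 (limma adjusted p = 0.123), and Per3 also lost its call without HFHSD replicate 2 (0.48, limma adjusted p = 0.117). Rn45s was high in HFHSD+CUR replicates 1 and 3, which were also the mice with the highest Per2 and Per3. The 4 B cell markers summed to 8.31 to 11.2 FPKM in HFHSD+CUR mice against 3.24 to 7.86 FPKM in HFHSD mice. The 4 cholangiocyte markers summed to 3.89 to 4.06 FPKM against 2.69 to 3.23 FPKM. No marker of either list was at 0 in all 12 libraries. The part of Rn45s and of these cells in the result was not tested.

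Per1, the third period gene, was at 12.2, 10.6 and 12.1 FPKM in HFHSD+CUR mice against 8.74, 8.95 and 10.6 FPKM in HFHSD mice, the lowest HFHSD+CUR mouse lying just below the highest HFHSD mouse (log2 fold change 0.30, SE 0.17, limma adjusted p = 0.207). Cry1, which encodes the cryptochrome that joins the period proteins, was at 1.70, 2.13 and 1.69 FPKM in HFHSD+CUR mice against 2.27, 2.49 and 2.60 FPKM in HFHSD mice, without overlap, and its log2 fold change of -0.40 did not pass the test (SE 0.20, limma adjusted p = 0.173). When mice of the same replicate number were paired within each diet, both passed, Per1 with a limma adjusted p of 0.0747 and Cry1 with one of 0.0982. Cry1 also passed without NCD replicate 2 (limma adjusted p = 0.0704).

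The same comparison on the NCD diet gave higher Per2 and Per3 in every CUR mouse, without a call. Per2 was at 10.9, 11.9 and 11.2 FPKM in NCD+CUR mice against 8.71, 6.97 and 7.63 FPKM in NCD mice. Per3 was at 16.0, 14.6 and 19.9 FPKM in NCD+CUR mice against 11.5, 10.5 and 14.3 FPKM in NCD mice. Neither gene overlapped between the groups, as was so for 2 of the 8 clock genes and 19.6% of all genes. The log2 fold changes were 0.54 for Per2 (SE 0.16, limma adjusted p = 0.290) and 0.47 for Per3 (SE 0.18, limma adjusted p = 0.299). Without pairing, limma called 0 of the 8 clock genes and 0.0% of all genes, while the unadjusted p was under 0.05 for 2 clock genes and for 1476 genes in all. With the replicate number as a block, Per2 (limma adjusted p = 0.0591) and Per3 (limma adjusted p = 0.0463) were called, against 8.16% of all genes. Per1 was at 8.50, 13.9 and 11.1 FPKM in NCD+CUR mice against 7.85, 8.89 and 10.1 FPKM in NCD mice, and these ranges overlapped (log2 fold change 0.30, SE 0.17). Rn45s was at 109.5, 949.9 and 1714 FPKM in NCD+CUR mice against 83.7, 122 and 1461 FPKM in NCD mice, higher with CUR in 3 of 3 numbered pairs here as on the HFHSD diet, and its part in the CUR results on either diet was not tested.

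Per2 and Per3 thus had fold changes of a like size on both diets, and the difference between the diets was tested as an interaction. It was 0.00 on the log2 scale for Per2 (SE 0.23) and 0.14 for Per3 (SE 0.25), and limma called 0 of the 8 clock genes and 0.0% of all genes. The smallest unadjusted p among the clock genes was that of Cry1 (0.164), and 145 of all genes fell under 0.05. Averaged over both diets, the CUR effect was 0.54 for Per2 (SE 0.11, limma adjusted p = 0.00626), 0.54 for Per3 (SE 0.13, limma adjusted p = 0.00892) and 0.30 for Per1 (SE 0.12, limma adjusted p = 0.0721). These were 3 calls of 8 (37.5%), all higher with CUR, beside 37.9% of all genes, 17.1% higher and 20.8% lower. Per2 and Per3 kept their calls in 22 of 22 alternative settings, and Per1 in 13 of 22. The call of Per1 was lost (limma adjusted p 0.113 to 0.179) on leaving out any of 7 libraries, namely NCD replicate 1, NCD+CUR replicates 2 and 3, HFHSD replicates 1 and 2, and HFHSD+CUR replicates 1 and 3.

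**Figure D2:**
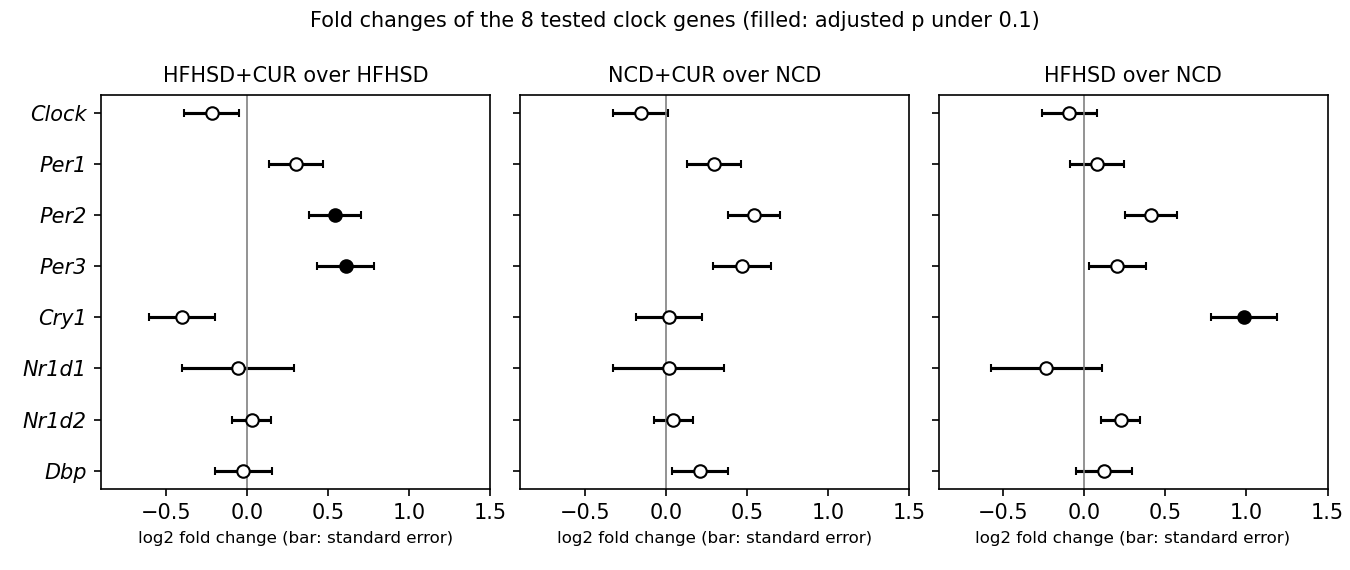
Log2 fold changes of the 8 tested clock genes (horizontal axis, bars are standard errors from limma) for HFHSD+CUR over HFHSD, NCD+CUR over NCD and HFHSD over NCD. Filled points passed an adjusted p of 0.1, which were Per2 and Per3 in the left panel and Cry1 in the right panel.

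The diet itself was compared in mice without CUR. Of these, NCD replicate 3 was labelled 107 weeks and all HFHSD mice 99 weeks, and with age as a covariate limma called 2040 genes in all against 486 without it. Cry1 was the clock gene that rose, at 2.27, 2.49 and 2.60 FPKM in HFHSD mice against 1.46, 0.820 and 1.39 FPKM in NCD mice. The lowest HFHSD mouse was above the highest NCD mouse, and the log2 fold change was 0.98 (SE 0.20, limma adjusted p = 0.0328). This was 1 call of 8 (12.5%) beside 4.61% of all genes called, with 2.74% of all genes called as higher. The call was lost without NCD replicate 2, the mouse with the lowest Cry1 (0.74, limma adjusted p = 0.103), without HFHSD replicate 2 (0.97, limma adjusted p = 0.118) and without HFHSD replicate 3 (0.94, limma adjusted p = 0.101). Per2 did not overlap between the groups either (9.44, 10.02 and 11.6 FPKM in HFHSD mice against 8.71, 6.97 and 7.63 FPKM in NCD mice), with a log2 fold change of 0.41 that did not pass (SE 0.16, limma adjusted p = 0.195, and 0.0880 without HFHSD+CUR replicate 3). Groups without overlap were thus seen for 2 of the 8 clock genes and for 22.8% of all genes. Sinusoidal endothelial markers summed to 17.4 to 29.2 FPKM in HFHSD mice against 41.2 to 45.4 FPKM in NCD mice, stellate cell markers to 48.0 to 69.2 FPKM against 83.9 to 101 FPKM, and cholangiocyte markers to 2.69 to 3.23 FPKM against 3.57 to 10.3 FPKM, and their part in these values was not tested. The 2 comparisons in which Cry1 stood apart, HFHSD against NCD and HFHSD+CUR against HFHSD, share the 3 HFHSD livers.

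The receptors of the second loop and DBP differed little between groups, and Nr1d1 differed widely between mice. Nr1d1 was at 32.9, 37.2 and 23.1 FPKM in HFHSD+CUR mice against 31.9, 39.0 and 25.6 FPKM in HFHSD mice. On the other diet it was at 24.6, 40.9 and 53.7 FPKM in NCD+CUR mice against 24.4, 37.7 and 56.5 FPKM in NCD mice. The highest and the lowest mouse of a group were 0.60 to 1.21 apart on the log2 scale, and the highest values of all were those of the 2 mice labelled 107 weeks. The log2 fold changes were -0.06 on the HFHSD diet and 0.02 on the NCD diet (SE 0.34 each, and 0.10 each with mice paired by number). Nr1d2 ranged from 18.2 to 26.4 FPKM over the 12 mice and Dbp from 69.5 to 114 FPKM, and neither was called in any of the 5 comparisons of the main analysis. With the pairing and with GC and length trends removed, Nr1d1, Nr1d2 and Dbp were called for CUR over both diets. That setting called 5280 of 10477 genes in all. In the main analysis the log2 fold changes over both diets were -0.02 for Nr1d1, 0.04 for Nr1d2 and 0.09 for Dbp. Clock, the partner of ARNTL, was at 1.24, 1.45 and 1.40 FPKM in HFHSD+CUR mice against 1.36, 1.66 and 1.81 FPKM in HFHSD mice, which overlapped (log2 fold change -0.22, SE 0.17, limma adjusted p = 0.371).

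Nr1d1 followed the replicate number closely. On the NCD diet the mice numbered 3 were also those labelled 107 weeks, so number and age label cannot be told apart for them. The largest difference between same-numbered mice was 0.15 on the log2 scale between HFHSD+CUR and HFHSD, where the groups spanned 0.68 and 0.60, and 0.12 between NCD+CUR and NCD, where the groups spanned 1.13 and 1.21. Among the 8 tested genes, those whose same-numbered mice all lay closer than the range of either group were Nr1d1 and Dbp on the HFHSD diet (2 of 8, against 17.9% of all genes) and Nr1d1 and Nr1d2 on the NCD diet (2 of 8, against 27.0% of all genes). Of the 8 clock genes only Nr1d1 did so on both diets, and of the 10 output genes 5 did (Lpin1, Gys2, Elovl3, Alas1 and Cyp2a5), against 6.68% of all genes. Per2, in contrast to Nr1d1, was higher with CUR in 3 of 3 numbered pairs on each diet. Any pairing would give this count, because the Per2 groups did not overlap.

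**Figure D3:**
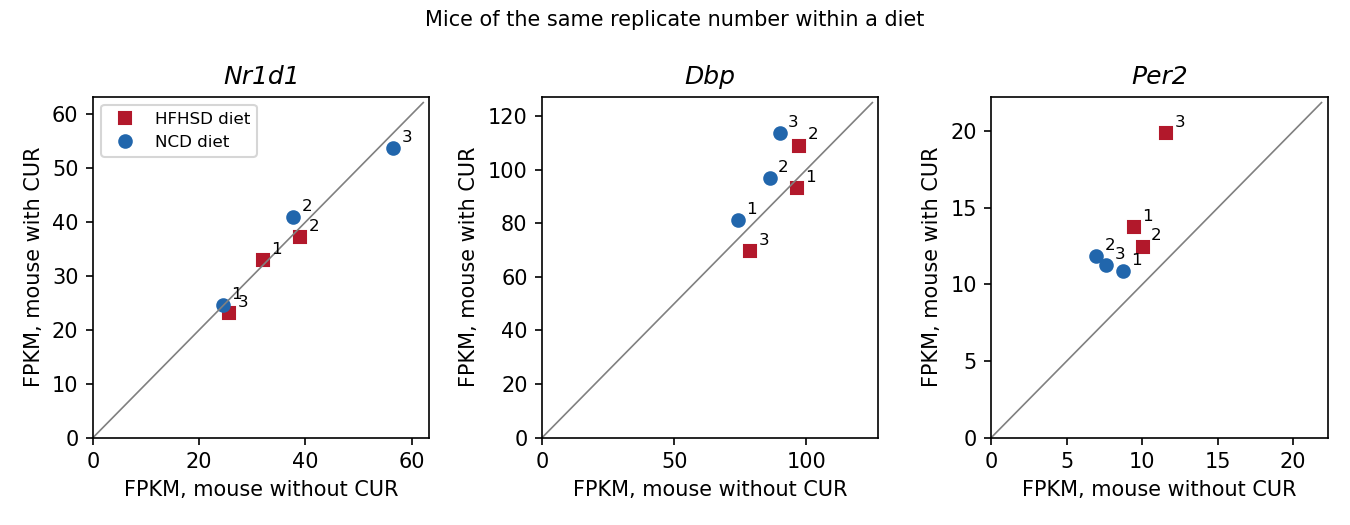
FPKM of Nr1d1, Dbp and Per2 in the mouse with CUR (vertical axis) against the mouse without CUR (horizontal axis) of the same replicate number, printed beside each point (squares, HFHSD diet, circles, NCD diet, and the line marks equal levels). Nr1d1 lies along the line from 23.1 to 56.5 FPKM. The 6 points of Per2 lie above it, as they must where groups do not overlap.

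To ask whether the livers differed in phase, ratios of genes of opposite phase within a library were compared. They rest on few fragments for the activators. Npas2 had 0, 2 and 0 fragments in HFHSD+CUR mice against 3, 3 and 4 in HFHSD mice, and 1, 4 and 6 in NCD+CUR mice against 3, 4 and 5 in NCD mice, counts that were recovered from the steps of low FPKM values. The group sums were 2 (95% exact Poisson interval 0.242 to 7.22) in HFHSD+CUR against 10 (4.80 to 18.4) in HFHSD, and 11 (5.49 to 19.7) in NCD+CUR against 12 (6.20 to 21.0) in NCD. The intervals cover counting error only. With the summed relative depth of the libraries taken into account, an exact binomial test of the fragments, which compares these libraries and not the conditions, gave p = 0.0434 for HFHSD+CUR against HFHSD and p = 0.835 for NCD+CUR against NCD, not adjusted. Arntl was at 0.242, 0.179 and 0.335 FPKM in HFHSD+CUR mice against 0.293, 0.0982 and 0.334 FPKM in HFHSD mice. It was at 0.148, 0.140 and 0.354 FPKM in NCD+CUR mice against 0.288, 0.337 and 0.361 FPKM in NCD mice. The ranges overlapped on both diets. With the lowest library taken to hold 5 fragments, which was a choice, the values correspond to about 5 to 25 fragments per library. On that scale 10 of the 12 values lay within 0.2 of a whole number.

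The log2 ratio of Arntl to Dbp (each with 0.1 FPKM added) averaged -8.01 ± 0.65 in HFHSD+CUR livers and -8.13 ± 0.74 in HFHSD livers (SD, n = 3 each). It averaged -8.33 ± 0.34 in NCD+CUR livers and -7.61 ± 0.02 in NCD livers (SD, n = 3 each). The ratio moved in opposite directions with CUR on the 2 diets, 0.12 on HFHSD and -0.72 on NCD, and the mean difference of -0.30 did not pass an exact permutation test within diets (two-sided p = 0.350). The difference between the diets, -0.10, did not pass it either (exact permutation p = 0.735). The log2 ratio of Npas2 to Nr1d1 differed by -0.14 with CUR (exact permutation p = 0.530) and by 0.02 between the diets (exact permutation p = 0.940), but every Npas2 value lay below the 0.1 FPKM added, so this ratio is set mostly by that constant and by Nr1d1 and is not read for phase. The ratio of Clock to Dbp, added after the data were seen because Clock was better measured than Arntl, differed by -0.28 with CUR (exact permutation p = 0.145) and by -0.13 between the diets (exact permutation p = 0.480). Over these 6 comparisons the adjusted p ranged between 0.795 and 0.940, where 0.005 is the smallest unadjusted p that the design allows. When same-numbered mice were paired within each diet, added after the data were seen, Clock to Dbp was lower with CUR in 6 of 6 pairs, by 0.07 to 0.77 on the log2 scale. The exact permutation p over the pairs was 0.0312, the smallest that 6 pairs allow, and 0.0938 after adjustment over the 3 ratios. Arntl to Dbp was lower with CUR in 4 of 6 pairs (exact permutation p = 0.281). Without the pairing, on the values as deposited, none of these ratios passed the test, which does not show that the groups were alike in phase.

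Between mice, Nr1d1 and Dbp moved together. Over the 12 mice their Pearson r was 0.762 (permutation p = 0.00410, adjusted 0.0164 over 4 relations) and their Spearman rho 0.734 (permutation p = 0.00840, adjusted 0.0336). The r was 0.864 with group means removed and 0.855 without NCD replicate 3 and NCD+CUR replicate 3, the mice furthest from the median of Nr1d1. Within the HFHSD diets it was 0.940 (n = 6, exact permutation p = 0.00833) and within the NCD diets 0.800 (n = 6, exact permutation p = 0.0486). Arntl showed no such relation over the 12 mice, with r of -0.266 to Dbp (permutation p = 0.402, rho -0.231, p = 0.472), 0.043 to Nr1d1 (permutation p = 0.896, rho 0.154, p = 0.635) and 0.155 to Npas2 (permutation p = 0.627, rho 0.364, p = 0.244). For Arntl and Nr1d1 the r was -0.867 within the HFHSD diets (n = 6, exact permutation p = 0.0181, not adjusted) and 0.498 within the NCD diets (n = 6, exact permutation p = 0.274). Without HFHSD replicate 2 and NCD+CUR replicate 2 these 3 values of r were -0.124, 0.337 and 0.467. All these permutations treat the mice as independent. Same-numbered livers deviated together within each diet, so the p-values of these correlations may be too small.

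A list of 15 other clock components, of which 14 passed the filter (Bhlhe41 did not), was read beside the members. It was chosen with earlier results of these data known, so its shares are descriptions only. With CUR on the HFHSD diet, Csnk1e and Ciart rose and Bhlhe40, Fbxw11, Rora and Gsk3b fell, 6 of 14 genes (42.9%) beside the 30.3% of all genes. Csnk1e, a kinase that phosphorylates period proteins, was at 3.68, 3.90 and 4.43 FPKM in HFHSD+CUR mice against 2.86, 2.23 and 2.55 FPKM in HFHSD mice (log2 fold change 0.63, SE 0.15, limma adjusted p = 0.0156). Bhlhe40 (DEC1), a repressor that competes for E-boxes, was at 38.4, 41.8 and 27.2 FPKM in HFHSD+CUR mice against 54.4, 56.2 and 53.3 FPKM in HFHSD mice (log2 fold change -0.63, SE 0.15, limma adjusted p = 0.0166). Neither gene overlapped between the groups, and Fbxw11, an F-box protein that marks period proteins for breakdown, did not either (log2 fold change -0.62, limma adjusted p = 0.0255, and 0.111 without HFHSD+CUR replicate 3). Ciart, a repressor of the ARNTL and CLOCK pair, rose by 0.51 (limma adjusted p = 0.0894), the activating receptor Rora fell by 0.43 (limma adjusted p = 0.0682) and the kinase Gsk3b fell by 0.39 (limma adjusted p = 0.0585). The call of Ciart was lost on leaving out any of 8 libraries (all 3 of NCD+CUR, NCD replicate 1, HFHSD replicates 1 and 3, and HFHSD+CUR replicates 2 and 3), with a limma adjusted p of 0.329 at most, that without HFHSD replicate 3. Those of Rora and Gsk3b were lost on leaving out 4 libraries each, HFHSD replicate 3 and HFHSD+CUR replicate 3 for both, HFHSD replicate 1 and HFHSD+CUR replicate 2 for Rora, and HFHSD replicate 2 and HFHSD+CUR replicate 1 for Gsk3b. With the pairing and with GC and length trends removed, Rora was at -0.21 (limma adjusted p = 0.197) and Gsk3b at -0.23 (limma adjusted p = 0.128). The median log2 fold change of the 14 genes was -0.09 against -0.03 for all genes.

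On the NCD diet limma called 0 of these 14 genes, the unadjusted p of 3 lying under 0.05, and Fbxw11 was called with the pairing (-0.57, limma adjusted p = 0.0628). Over both diets 8 of 14 genes were called (57.1%, against 37.9% of all genes), and they were the 6 above with Tef, which rose by 0.27, and Hlf, which fell by 0.27 on the log2 scale. Both encode D-box binding relatives of DBP, and both calls were close to the threshold (limma adjusted p = 0.0944 for Tef and 0.0875 for Hlf) and were lost on leaving out any of 9 of the 12 libraries. Tef kept its call only without NCD replicate 3, HFHSD replicate 3 or HFHSD+CUR replicate 2, and Hlf only without NCD replicate 2, HFHSD replicate 1 or HFHSD+CUR replicate 2. The call of Ciart over both diets was lost without NCD+CUR replicate 2 (limma adjusted p = 0.102). With the pairing, Tef (0.31, limma adjusted p = 0.0358) and Hlf (-0.36, limma adjusted p = 0.0293) were called on the HFHSD diet alone too, and Csnk1d over both diets (-0.17, limma adjusted p = 0.0962). Beside these stood 4815 of 10545 genes called with the pairing on the HFHSD diet and 5564 over both diets. In HFHSD against NCD, limma called 0 of the 14, and the 3 whose unadjusted p lay under 0.05 included Nfil3, a repressor at D-boxes (0.57, limma adjusted p = 0.146), and Csnk1e (-0.49, limma adjusted p = 0.108).

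The 10 output genes of the liver clock differed most with the diet. In HFHSD against NCD livers 5 of 10 rose and 0 fell (50%, beside 2.74% of all genes that rose), with a median log2 fold change of 0.53 against 0.03 for all genes. The list was chosen with earlier results of these data known, so this share is a description only. Alas1, the rate-limiting enzyme of heme synthesis, was at 328, 484 and 293 FPKM in HFHSD mice against 85.0, 88.9 and 153 FPKM in NCD mice (log2 fold change 1.78, SE 0.31, limma adjusted p = 0.0242). Nampt, which makes the NAD precursor nicotinamide mononucleotide, was at 27.8, 22.1 and 23.5 FPKM in HFHSD mice against 13.2, 10.5 and 15.2 FPKM in NCD mice (0.92, SE 0.16, limma adjusted p = 0.0212). Ccrn4l (nocturnin) was at 58.7, 63.7 and 54.8 FPKM in HFHSD mice against 31.0, 23.7 and 27.7 FPKM in NCD mice (1.11, SE 0.20, limma adjusted p = 0.0212). None of these 3 genes overlapped between the groups. Cyp2a5, a drug-metabolizing enzyme, rose by 1.60 (limma adjusted p = 0.0604), and Por, the electron donor of such enzymes, rose by 0.51 (limma adjusted p = 0.0734). Alas1, Cyp2a5 and Por are also known to be induced by drug-sensing receptors, so they do not report on the clock alone. Without NCD replicate 2 the adjusted p was 0.103 for Ccrn4l, 0.103 for Alas1, 0.221 for Cyp2a5 and 0.241 for Por, and Alas1 (0.111) and Cyp2a5 (0.201) also lost their calls without NCD replicate 1. Cyp2a5 further lost its call without HFHSD replicate 1 or 2, and Por without NCD replicate 1, NCD+CUR replicate 1 or 2, or HFHSD replicate 2 or 3.

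With CUR on the HFHSD diet 3 of the 10 output genes fell (30%, beside 17.2% of all genes that fell), with a median of -0.22 against -0.03. They were Wee1, a kinase that holds back mitosis (-0.67, SE 0.15, limma adjusted p = 0.0149), Nampt (-0.49, limma adjusted p = 0.0520) and Por (-0.39, limma adjusted p = 0.0568). Wee1 was at 3.65, 3.70 and 2.89 FPKM in HFHSD+CUR mice against 5.91, 5.50 and 5.004 FPKM in HFHSD mice, without overlap. The call of Nampt was lost without HFHSD replicate 1, HFHSD replicate 3 or HFHSD+CUR replicate 3, and that of Por without HFHSD replicates 2 or 3 or HFHSD+CUR replicates 1 or 3 (limma adjusted p 0.107 to 0.192). Nampt and Por were thus higher in HFHSD against NCD and lower in HFHSD+CUR against HFHSD, and these comparisons share the 3 HFHSD livers. With the pairing, Alas1 (-0.26, limma adjusted p = 0.0583) and Gys2 (-0.22, limma adjusted p = 0.0892) fell on the HFHSD diet, and Wee1 on the NCD diet (-0.49, limma adjusted p = 0.0633), where limma called 0 of the 10 without it and the unadjusted p of 1 lay under 0.05. Over both diets Wee1, Nampt and Por fell and Ccrn4l rose (0.33, limma adjusted p = 0.0971, lost on leaving out any library but NCD replicate 1, NCD+CUR replicate 1 or HFHSD+CUR replicate 2), 4 of 10 genes against 37.9% of all genes. With the pairing Cyp2a5 was called as well (0.19, limma adjusted p = 0.0958). Of all 10545 genes the pairing called 4815 on the HFHSD diet, 860 on the NCD diet and 5564 over both diets.

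**Figure D4:**
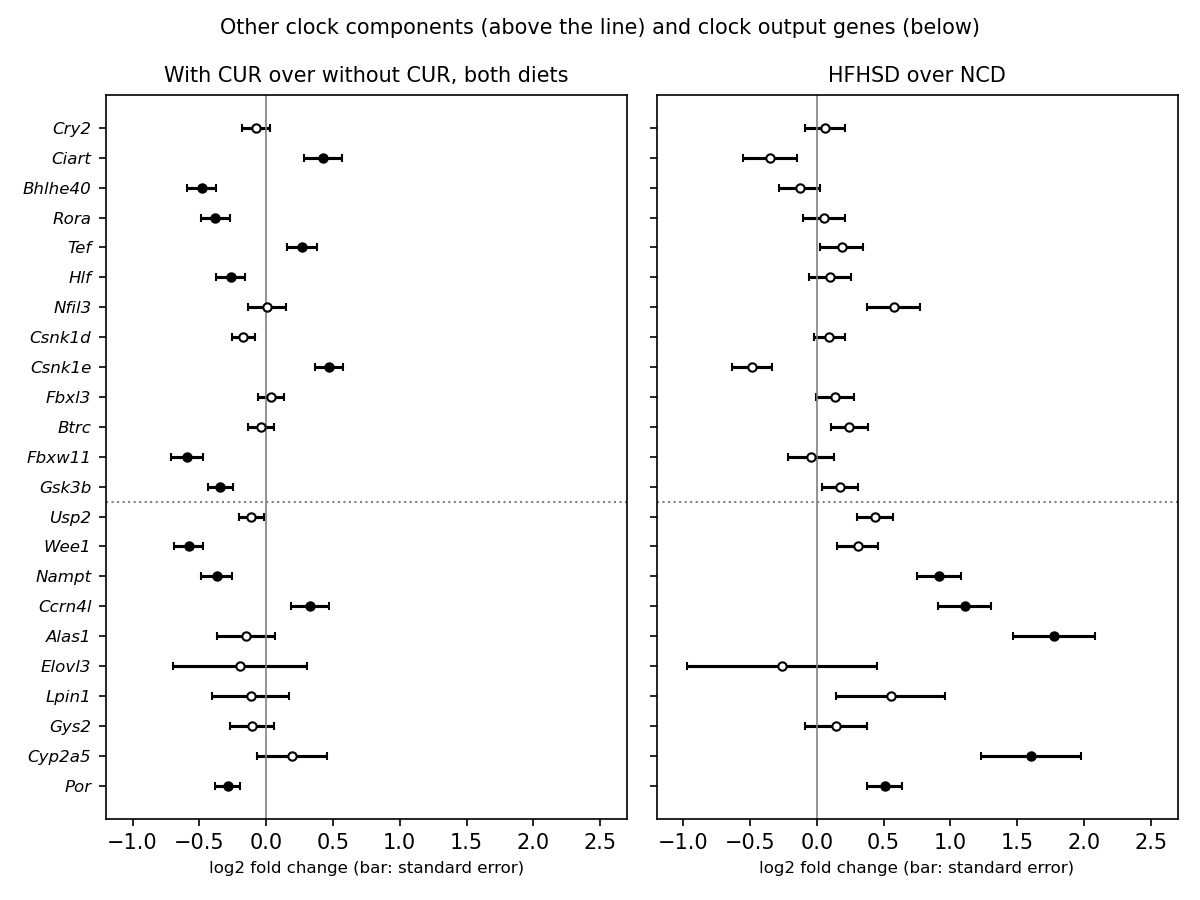
Log2 fold changes (horizontal axis, bars are standard errors from limma) of other clock components above the dotted line and 10 clock output genes below it, for CUR averaged over both diets and for HFHSD over NCD. Filled points passed an adjusted p of 0.1, which in the right panel were Nampt, Ccrn4l, Alas1, Cyp2a5 and Por.

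Because feeding, fasting and stress also set the clock genes of liver, short lists for those states were read in the same comparisons. Of 8 fasting genes, Irs2, an insulin receptor substrate that is induced on fasting, fell with CUR on the HFHSD diet (-1.23, SE 0.48, limma adjusted p = 0.0892) and over both diets (-0.97, limma adjusted p = 0.0531), and Fgf21, a fasting hormone, was lower in HFHSD than in NCD (-2.39, SE 0.64, limma adjusted p = 0.0986). Irs2 was at 0.893, 0.937 and 1.20 FPKM in HFHSD+CUR mice against 2.17, 1.66 and 4.27 FPKM in HFHSD mice. The call of Irs2 on the HFHSD diet was lost on leaving out any of 7 libraries (all 3 of HFHSD+CUR, HFHSD replicates 1 and 3, NCD+CUR replicate 2 and NCD replicate 1), and its call over both diets without NCD+CUR replicate 1 or 2 or HFHSD replicate 3. That of Fgf21 was lost on leaving out any library of HFHSD or NCD+CUR, or NCD replicate 1 or 2. None of the 6 feeding genes and none of the 7 genes induced by glucocorticoids was called in any of the 5 comparisons without the pairing. Of all genes 30.3% were called for CUR on HFHSD, 37.9% over both diets and 4.61% for HFHSD against NCD. For CUR on NCD and for the interaction it was 0.0%, so the lack of calls there says nothing of these lists. The smallest unadjusted p of the feeding genes was that of the lipogenic enzyme Acly over both diets (-0.66, limma adjusted p = 0.196), with Srebf1 and Pnpla3 among the next, and that of the glucocorticoid targets was that of Sgk1 in HFHSD against NCD (-0.48, limma adjusted p = 0.160), followed by Tat, Fkbp5 and Tsc22d3. With the pairing, Fgf21 rose with CUR on the HFHSD diet (0.94, limma adjusted p = 0.0615), as did the feeding gene Pnpla3 (0.81, limma adjusted p = 0.0209) and the glucocorticoid target Sgk1 (0.28, limma adjusted p = 0.0979), while Acly (-0.86, limma adjusted p = 0.0291) and Tat (-0.43, limma adjusted p = 0.0130) fell. Over both diets Pnpla3 (0.70), Mt2 (0.29), Acly (-0.66) and Tat (-0.24) were among those called with the pairing, and Mt2 was called on the NCD diet (0.40, limma adjusted p = 0.0893). These paired calls stood beside 4815 of 10545 genes on the HFHSD diet, 5564 over both diets and 860 on the NCD diet.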

How the data were processed

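RNA of 12 livers was analysed, 3 in each group. The authors aligned paired reads to mm10 with TopHat2 2.0.13 and made the deposited FPKM values per gene with Cuffdiff 2.2.1, per the labels, dividing fragments by transcript length and library size. Other deposited tables hold the authors' own comparisons, pathway and ontology results and were not used. Total fragments are not in the FPKM table, so only relative depth was recovered, which differed by up to 1.63 times between libraries.

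Tests used log2(FPKM + 0.1) in genes whose mean reached 1 FPKM, 10545 of 23997. All 4 groups entered a single model in R 4.3.3 with limma 3.58.1, with trended, robust moderation and a threshold of 0.1 on the adjusted p, and the code was tested on simulated data. Ratios were tested by exact permutation within strata (SciPy 1.17.1). The members and lists were chosen with earlier results of these data known. Named genes are the 10 members, listed genes past the threshold in any comparison (otherwise up to 4 with the smallest p), and the 5 genes most and least correlated with the ratio of Arntl to Dbp. A few genes that this rule names are not reported here.

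Same-numbered livers deviated together within each diet. The correlations were 0.339, 0.300 and 0.527 for NCD+CUR with NCD, and 0.156, 0.350 and 0.178 for HFHSD+CUR with HFHSD. Between HFHSD and NCD they were 0.00341, 0.0428 and 0.236, and the last lies above the 0.156 and 0.178 of the HFHSD diet. Numbers were taken as pairs within a diet, so the paired results rest on a choice made from these same data. The pairing comes from these correlations, since the labels do not state it. The NCD+CUR and NCD livers with the correlation of 0.527 were also the 2 labelled 107 weeks. Promoter sequences are from RefSeq (GRCm38.p6). The alternatives were other pseudocounts, filters, scalings, covariates and models, and leaving out each library.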

Additional observations from a re-analysis of the deposited data

How the results depend on the processing

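Among alternatives, 193 of the main values stayed on their side of the threshold and kept their direction or size, 14 counts moved, 11 ratios changed sign and 2 passed the threshold. Gene results were followed where the main analysis called them, and for some uncalled results of Per1, Per2, Per3 and Cry1. Of these values 785 kept their call or lack of one, 134 lost a call, 9 gained one and 0 changed sign. The 9 gains are all of those clock genes. Calls that other genes gained with the pairing, such as those given above, are not counted in them. With the replicate block within each diet, 2 clock genes were called for CUR on NCD against 0 without it (2 when GC and length trends were also removed), and 4 for CUR on HFHSD against 2 (5 with those trends removed). Over both diets the pairing with those trends removed called 5 clock genes against 3, Nr1d1, Nr1d2 and Dbp being added and Per1 lost. That setting called 5280 of 10477 genes in all. Without those trends removed, the block changed the calls of Per2, Per3, Per1 and Cry1 given above and of no other clock gene. The block could not be fitted within diets for HFHSD against NCD. Without a filter on low values 0 clock genes were called for CUR on HFHSD and 0 for HFHSD against NCD, where more genes were tested, and with a minimum mean of 5 FPKM, which leaves Cry1 out, 0 for HFHSD against NCD. Leaving out each library gave 0 to 0 clock genes for CUR on NCD, 0 to 3 for CUR on HFHSD, 2 to 4 over both diets, 0 to 2 for HFHSD against NCD and 0 to 0 for the interaction. Over all genes the calls ranged from 0 to 899 for CUR on NCD (0 in the main analysis, 860 with the block). They ranged from 1228 to 4815 for CUR on HFHSD (3196) and from 2639 to 5564 over both diets (3994), the highest of each with the block. For HFHSD against NCD the range was 55 to 2040 (486), the 2040 with age in weeks as a covariate.

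None of the ratios of Arntl or Npas2 had passed its test, and their signs were not stable. Between diets Arntl to Dbp was 0.0575 after quantile normalization and -0.27 to 0.10 on leaving out a library, and with CUR it was -0.50 to -0.14. Npas2 to Nr1d1 was 0.0028 with CUR at a pseudocount of 1 and -0.29 to 0.0077 on leaving out a library. Between diets it was -0.69 at a pseudocount of 0.01, -0.18 without the 2 libraries labelled 107 weeks and -0.13 to 0.16 on leaving out a library. Clock to Dbp with CUR was -0.36 after quantile normalization (exact permutation p = 0.0350), -0.28 with mice paired by number (exact permutation p = 0.0312) and -0.38 to -0.19 on leaving out a library, and -0.23 to -0.03 between diets. Depth limits Arntl and Npas2, and 3 mice a group at a single unstated time of day limit what can be said of phase.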

Other observations

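Nr1d1 was compared with the Kupffer cell markers after its lowest correlations had been seen. The genes whose level ran most against Nr1d1 over the 12 mice were Atp6v0d2 (r = -0.932), Fpr1 (-0.891), Clec4a1 (-0.887), Siglece (-0.872) and Igsf6 (-0.858), several of which are known from macrophages and other myeloid cells, and those that ran most with it included Cyr61 (0.927), Gys2 (0.863), Pnpla7 (0.863) and Cdk5rap1 (0.856). These are descriptions over mice that share libraries, picked as extremes of 10545 genes. The 4 Kupffer cell markers in the table summed to 118, 56.7 and 148 FPKM in HFHSD+CUR mice against 124, 59.8 and 80.2 FPKM in HFHSD mice. They summed to 112, 83.0 and 49.8 FPKM in NCD+CUR mice against 101, 121 and 57.6 FPKM in NCD mice. Both 107-week mice, with the highest Nr1d1, were among the lowest, and HFHSD+CUR replicate 3, with the lowest Nr1d1, was the highest. Over the 12 mice the log2 sum and Nr1d1 had a Pearson r of -0.715 (permutation p = 0.0104) and a Spearman rho of -0.636 (permutation p = 0.0308). The r was -0.544 without HFHSD+CUR replicate 3 and NCD+CUR replicate 3. Within the HFHSD diets it was -0.662 (n = 6, exact permutation p = 0.186) and within the NCD diets -0.813 (n = 6, exact permutation p = 0.0667), so neither diet alone passed. This was 1 relation chosen after the data were seen, and its p-values are not adjusted for that choice.

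By the same measure, the genes most like the log2 ratio of Arntl to Dbp were Cdca4 (r = 0.892), Rin2 (0.800), Ntn1 (0.798), Adra2b (0.793) and Slc43a1 (0.773), and those least like it included Mrpl41 (-0.845), Sgta (-0.820), Prelid1 (-0.796) and Nudt9 (-0.788). None of these is on the clock lists used here.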
